A study of Mus musculus with 2 samples.

Results

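The S100 genes described here are S100a8, S100a9, S100a4, S100a6, S100a10, S100a11 and S100a13, 7 of the 27998 genes in the count tables. They were listed by name as calcium-binding genes of 1 family, and followed over marker-defined cell classes in both libraries. The spread of S100a8 and S100a9 in cells outside the myeloid classes was set beside that of S100a4, S100a6, S100a10 and S100a11. Another 10 S100 genes are in the gene table, of which S100a1 alone reached 20 unique molecular identifiers (UMIs, 1 per captured transcript molecule) over both libraries.

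The study profiled mouse bone marrow with 10x Genomics 3' single-cell RNA sequencing, in 1 library per group. The marrow library came from naive C57BL/6 mice, pooled from 3 animals, and held cells that were CD45+ and lacked CD3 and Ly6G. The Car1-GFP library came from 3 pooled naive reporter mice of the same background, and held CD45+ cells in which the Car1-GFP reporter was on. Car1 is a cytosolic carbonic anhydrase, and neither sex nor age is stated in the labels. With pooled animals and 1 library per group there was no spread between replicates and no test between groups, so all intervals are 95% and cover counting error only.

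S100 proteins are small calcium-binding proteins with paired EF-hand motifs that mostly work as dimers. S100a8 and S100a9 form calprotectin, the most abundant cytosolic protein of neutrophils, which chelates zinc and manganese and signals through Tlr4 and Ager when released. S100a4, S100a6, S100a10 and S100a11 bind cytoskeletal and membrane partners such as non-muscle myosin and annexins, and S100a13 takes part in the unconventional release of Fgf1 and Il1a.

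After filtering, the marrow library held 6268 cells with a median of 1031 UMIs, and the Car1-GFP library 2400 cells with a median of 15512.5, a depth 15.05 times greater. The libraries shared 14 barcodes, which held a median of 18.5 S100a8 UMIs in the marrow library and 0 in the Car1-GFP library. In counts scaled to the library total (CPM, UMIs of a gene per 1000000 UMIs), Car1 stood at 102 in the marrow library and 594 in the Car1-GFP library. Cells that were neutrophil-like by their markers made up 2099 of the 6268 marrow cells, or 33.5%, although the gate was Ly6G-, and Ly6g itself stood at 85.0 CPM. In the Car1-GFP library Ptprc, which encodes CD45, stood at 12.97 CPM against 303 in the marrow library. Cells were clustered without the S100 genes, so that these did not define the classes. The marrow library gave 12 named classes of at least 50 cells, and the Car1-GFP library gave 2063 erythroid progenitor-like cells, 192 late erythroid-like cells and 145 unnamed cells.

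All members lie on mouse chromosome 3 (mm10). S100a4 (ENSMUSG00000001020) spans 90603771 to 90606045 on the plus strand and S100a6 (ENSMUSG00000001025) 90612882 to 90624181 on the same strand, 6836 bases further on. S100a8 (ENSMUSG00000056054) spans 90668978 to 90670035 on the plus strand. S100a9 (ENSMUSG00000056071) spans 90692632 to 90695721 on the minus strand, so that this pair is transcribed toward each other across 22596 bases. S100a13 (ENSMUSG00000042312) lies before them at 90514435 to 90524581, and S100a11 (ENSMUSG00000027907, 93520488 to 93526287) and S100a10 (ENSMUSG00000041959, 93555080 to 93564643) beyond them, all on the plus strand. In the GENCODE M21 annotation S100a4 overlaps the gene model Gm42674 on the same strand, so reads of that pair could be shared, and the other 6 members overlap no gene.

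The upstream sequences of the 4 clustered genes are shown because S100a8 and S100a9 had nearly one pattern over marrow cells. Their neighbours S100a4 and S100a6 differed from that pattern and from each other. Each is the 250 bases before the RefSeq start (build GRCm38.p6), 5' to 3' on the gene's strand. Capitals mark matches, on either strand, to 4 motifs, the letters TTNNGNAA for C/EBP factors, GAGGAAGT for PU.1, AGATAA for the erythroid factor family led by Gata1, and TATAAA for the core promoter box of that name.
S100a8 (chr3:90668821-90669070, plus strand): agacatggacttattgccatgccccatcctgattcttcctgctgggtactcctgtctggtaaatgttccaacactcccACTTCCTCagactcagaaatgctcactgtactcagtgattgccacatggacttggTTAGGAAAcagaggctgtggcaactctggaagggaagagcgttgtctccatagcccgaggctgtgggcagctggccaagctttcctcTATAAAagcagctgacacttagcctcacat
S100a9 (chr3:90695722-90695971, minus strand): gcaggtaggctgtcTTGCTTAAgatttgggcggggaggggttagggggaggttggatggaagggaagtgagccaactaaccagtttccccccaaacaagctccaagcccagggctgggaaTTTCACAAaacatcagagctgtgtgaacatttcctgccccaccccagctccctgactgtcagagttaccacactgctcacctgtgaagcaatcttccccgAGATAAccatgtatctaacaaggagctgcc
S100a4 (chr3:90603520-90603769, plus strand): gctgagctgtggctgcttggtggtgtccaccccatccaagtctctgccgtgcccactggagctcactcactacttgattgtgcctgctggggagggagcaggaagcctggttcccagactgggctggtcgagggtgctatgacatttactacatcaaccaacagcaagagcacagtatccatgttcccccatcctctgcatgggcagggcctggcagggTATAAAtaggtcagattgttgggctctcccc
S100a6 (chr3:90612644-90612893, plus strand): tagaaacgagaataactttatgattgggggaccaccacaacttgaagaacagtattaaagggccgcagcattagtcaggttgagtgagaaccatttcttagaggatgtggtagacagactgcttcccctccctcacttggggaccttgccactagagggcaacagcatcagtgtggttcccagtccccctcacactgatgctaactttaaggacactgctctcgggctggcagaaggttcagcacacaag
In the S100a8 window lay 1 match each to the PU.1, C/EBP and TATA box letters, the last 30 bases before the start. The S100a9 window held 2 C/EBP matches and 1 Gata1-type match, and the S100a4 window a TATA box match 31 bases before the start. The S100a6 window held no match. Among 32851 RefSeq promoter windows of the same length, 36.8% held the C/EBP letters, 12.4% the TATA box letters, 9.99% the Gata1-type and 2.44% the PU.1 letters. RefSeq promoters were matched for 6 of the 7 members, with none for S100a10. The earliest GENCODE transcript of S100a8 starts 93 bases before the RefSeq start, inside the window shown, and a match is a description of letters, not of a bound site.

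Calprotectin genes were highest in neutrophil-like cells by a wide margin and were present in every other class. S100a8 stood at 207053 CPM (205722 to 208389) in the 494 maturing neutrophil-like cells and 191905 CPM (191304 to 192506) in the 1605 immature neutrophil-like cells. The immature class joined cluster 0 at 176490 CPM (175811 to 177172) and cluster 4 at 230852 CPM (229616 to 232092). Cluster 4 lay above the maturing class, so the order of these classes depended on the pooling. It stood at 29279 CPM in NK and innate lymphoid-like cells, 24878 in B lineage-like cells, 17135 in plasmacytoid dendritic-like cells and 15690 in basophil and mast cell-like cells. Granulocyte-monocyte progenitor-like cells were at 14246 CPM (14047 to 14447) and conventional dendritic-like cells at 13618 (12988 to 14270), intervals that overlapped. The monocyte-like class, with Clec4a3, Gngt2 and Cx3cr1 among its leading genes, was at 11348 CPM and the classical monocyte-like class at 11209, which also overlapped. The lowest classes were stem and multipotent progenitor-like cells at 9490 CPM and late erythroid-like cells at 8733, which did not overlap. The late erythroid-like class was mixed in stage. A finer clustering (Leiden resolution 2) gave 198 erythroid progenitor-like marrow cells at 8696 CPM (8480 to 8917). It gave 78 late erythroid-like marrow cells at 8934 CPM (8424 to 9466).

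In each setting run the highest class was neutrophil-like, 23.7-fold above the lowest class in the clustering used. Below it the S100a8 levels moved with the settings: with at least 1000 UMIs per cell S100a8 stood at 44318 CPM in B lineage-like and 29371 in granulocyte-monocyte progenitor-like cells, and at Leiden resolution 2 at 10446 in plasmacytoid dendritic-like cells. The largest shift was in NK and innate lymphoid-like cells under single-cell marker gates. These gave each cell the class with most markers detected, at least 3, and left ties unnamed. The 54 cells so picked stood at 9523 CPM, beside 9815 in classical monocyte-like cells by the same gates. Cells with more neutrophil than lymphoid markers cannot be lymphoid-like under this rule, which can itself lower that level. The gates named 2713 cells immature neutrophil-like, of which 1593 were so by cluster. The order of lymphoid-like and monocyte-like classes therefore depended on the setting. S100a9 had the same order of classes at its ends, from 141060 CPM in maturing neutrophil-like cells to 5325 in late erythroid-like cells, 26.5-fold apart. Cluster 4 of the immature neutrophil-like class again lay above the maturing class, at 146648 CPM of S100a9 (145663 to 147637). Neutrophil-like cells held 86.3% of all S100a8 UMIs and 87.2% of all S100a9 UMIs of the library, with 30.01% of its total UMIs. In maturing neutrophil-like cells S100a8 and S100a9 together were 34.8% of all UMIs, against 1.41% in late erythroid-like cells.

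The other members each divided differently between monocyte-like and neutrophil-like cells. S100a4, which binds non-muscle myosin and is known from motile cells, was highest in the monocyte-like class at 1220 CPM (1146 to 1297). Classical monocyte-like cells followed at 686 CPM and conventional dendritic-like cells at 660, with overlapping intervals. It stood at 37.9 CPM in maturing and 30.8 (23.7 to 39.4) in immature neutrophil-like cells, and at 21.6 CPM (12.8 to 34.2) in late erythroid-like cells, 56.4-fold below the top, the last pair with overlapping intervals. Monocyte-like cells of both classes held 80.1% of its UMIs and neutrophil-like cells 3.66%.

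S100a6, or calcyclin, a partner of annexins and of Cacybp, was high in both lineages. It stood at 3306 CPM (3184 to 3432) in the monocyte-like class, 2355 (2215 to 2502) in maturing neutrophil-like cells and 2190 (2102 to 2281) in classical monocyte-like cells. With the S100a8 and S100a9 UMIs left out of the total the top class turned, at 3613 CPM in maturing neutrophil-like cells and 3368 in the monocyte-like class. Immature neutrophil-like cells were at 441 CPM (413 to 471), so the 2 neutrophil-like classes differed for S100a6 while differing little for S100a8. The lowest class was again late erythroid-like, at 150 CPM, 22.0-fold below the top.

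S100a10, or p11, the partner of annexin A2 at the plasma membrane, was low in the neutrophil-like classes, where calprotectin was highest. It was 1007 CPM (947 to 1069) in classical monocyte-like cells, 660 in the monocyte-like class and 609 in NK and innate lymphoid-like cells, the last pair with overlapping intervals. Immature and maturing neutrophil-like cells were lowest at the clustering used, at 44.5 CPM (35.8 to 54.7) and 40.2 CPM (23.8 to 63.5), 25.1-fold below the top, with late erythroid-like cells at 107. In other settings late erythroid-like cells were lowest, at 23.4 CPM against 44.9 and 41.3 at Leiden resolution 2, at 31.6 against 40.9 in immature neutrophil-like cells with at least 1000 UMIs per cell, and with no S100a10 UMI in the 59 cells of the marker gates (floor of 3 counts 33.1 CPM, exact interval up to 40.7 CPM). Over the 12 classes the correlation of S100a10 with S100a8 on log2(CPM + 10) was -0.70, and that of S100a11 with S100a8 was 0.74. S100a10 and S100a8 did not run opposite in every class. At the clustering used, late erythroid-like cells were low for both, and NK and innate lymphoid-like cells were among the higher classes for both.

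S100a11, a partner of annexin A1, followed the neutrophil series, with 2842 CPM (2688 to 3002) in maturing and 1336 (1286 to 1387) in immature neutrophil-like cells. Classical monocyte-like cells were at 901 CPM and late erythroid-like cells at 137, 20.7-fold below the top. S100a13 varied least, from 356 CPM (271 to 459) in NK and innate lymphoid-like cells to 62.5 (46.7 to 82.0) in late erythroid-like cells, 5.69-fold. Its NK and innate lymphoid-like, monocyte-like, classical monocyte-like and maturing neutrophil-like values had overlapping intervals, and with S100a8 and S100a9 out of the total maturing neutrophil-like cells led at 452 CPM.

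**Figure D1:**
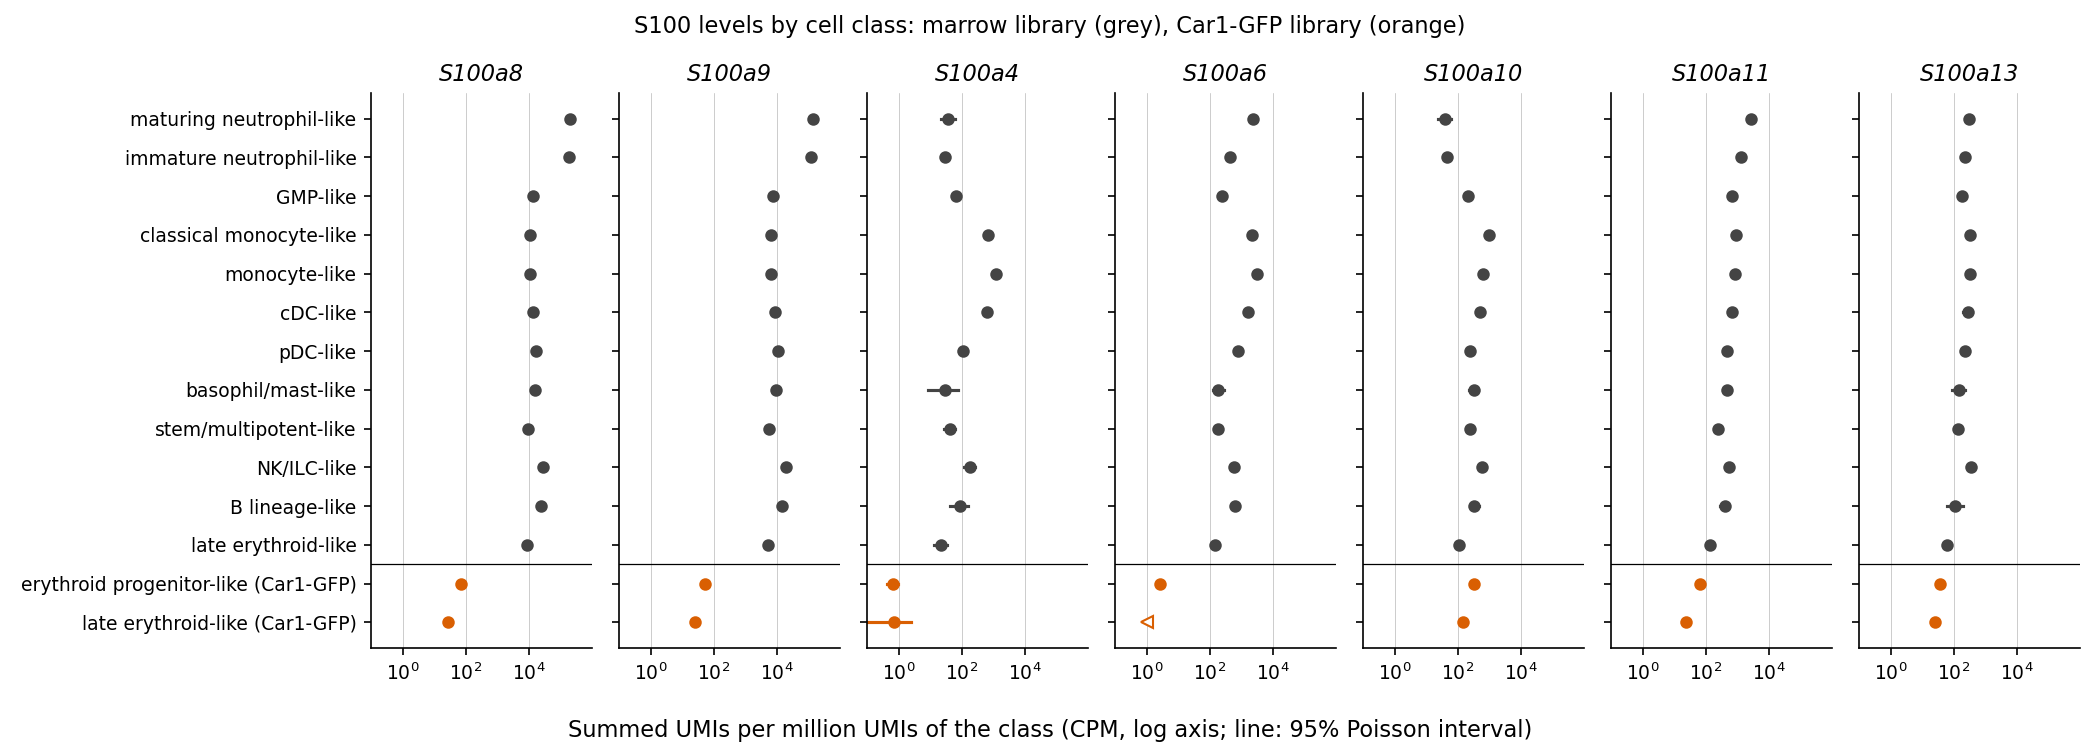
Level of each S100 gene (CPM, log axis) in each cell class; points are summed UMIs as CPM, lines 95% Poisson intervals, and the open triangle is the floor of 3 counts where no UMI was seen. S100a8 and S100a9 stand apart in the neutrophil-like classes, S100a4 peaks at 1220 CPM in the monocyte-like class, and S100a10 lies at 44.5 and 40.2 CPM in the neutrophil-like classes.

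At least 10-fold between the highest and lowest marrow class was reached by 6 of the 7 members, S100a13 being the exception. The background is 24.2% of the 2479 genes with at least 50 CPM over the marrow library. Since the genes were chosen with these levels known, the share describes them and carries no test.

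S100a8 and S100a9 had a Pearson correlation of 0.999 over the 12 marrow classes on log2(CPM + 10). The genes with the patterns most like S100a8 were Wfdc21 (0.995), Camp (0.995) and Ngp (0.992), the last pair products of developing neutrophils, and the same 3 led for S100a9 at 0.995 to 0.997. For S100a4 they were Ccr2, the chemokine receptor of classical monocytes (0.974), Ctsc (0.957) and Myadm (0.945). Arpc5, a subunit of the actin-nucleating Arp complex (0.933), Slfn2 (0.922) and Xiap (0.921) came nearest to S100a6. Tmsb10, Cd48 and Arhgdia came nearest to S100a10 (0.921 to 0.931), Lasp1, Prdx5 and Sorl1 to S100a11 (0.941 to 0.952), and Actg1, Sla and Actr2 to S100a13 (0.94 to 0.95). These correlations share the 12 classes of 1 library and were taken as the highest among 2471 genes. Wfdc21, Camp, Ngp and Ccr2 were also among the markers used to name the classes, so their match is not independent of the class names.

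Non-myeloid cells of the marrow library, here the 534 late erythroid-like, NK and innate lymphoid-like and B lineage-like cells, all carried calprotectin transcripts. They held a median of 14 S100a8 UMIs each, with the 10th percentile at 5 and the 90th at 53, and 100% of them had at least 1. The median was 11 in B lineage-like cells, 9 in NK and innate lymphoid-like cells and 22 in late erythroid-like cells, whose median depths were 1043, 853 and 2504.5 UMIs. Immature neutrophil-like cells held a median of 228 and maturing neutrophil-like cells 164, so their distributions lay far above. The monocyte-like and classical monocyte-like classes had medians of 8 and 12, on either side of the 9 and 11 of the lymphoid-like cells.

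Depth moved with these counts. In non-myeloid cells with under 800 UMIs the mean was 8.34 S100a8 UMIs, and it was 16.5, 31.5 and 45.4 in the bins from 800, from 1200 and from 2000 UMIs. Classical monocyte-like cells gave 8.83, 10.6, 18.0 and 24.2 over the same bins. The non-myeloid medians were 6, 10, 14 and 31, and the bins differed in class. Under 800 UMIs 103 of 116 non-myeloid cells were lymphoid-like, and from 2000 UMIs 171 of 190 were late erythroid-like. Within class the means ran 8.28, 19.6, 48.3 and 138 in lymphoid-like cells, and 8.85, 9.23, 14.1 and 35.1 in late erythroid-like cells. The medians rose less in lymphoid-like cells, at 6, 10, 15 and 26, the last from 19 cells. In late erythroid-like cells the medians were 8, 9, 14 and 31. With every cell thinned to 1000 UMIs, which left out 175 of the 534, all 359 remaining non-myeloid cells still had an S100a8 UMI (100%, 99.0 to 100) and the median was 9. Thinned classical monocyte-like cells also had a median of 9, and thinned immature neutrophil-like cells 193.

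The other members did not share this floor. Among the 359 thinned non-myeloid cells, 20.6% (16.5 to 25.2) had an S100a6 UMI, 18.7% an S100a11 UMI, 17.5% an S100a10 UMI, 9.19% an S100a13 UMI and 5.29% (3.22 to 8.14) an S100a4 UMI. Unthinned, these shares were 35.4% for S100a6, 32.4% for S100a11, 29.0% for S100a10, 18.9% for S100a13 and 9.55% for S100a4. In thinned monocyte-like cells S100a6 was seen in 89.7% and S100a4 in 65.2%, and in thinned immature neutrophil-like cells S100a4 was seen in 3.02% and S100a10 in 4.54%. S100a4 and S100a10 were thus rarely seen in neutrophil-like cells, whereas S100a8 was seen in 99.9% of all marrow cells at full depth.

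**Figure D2:**
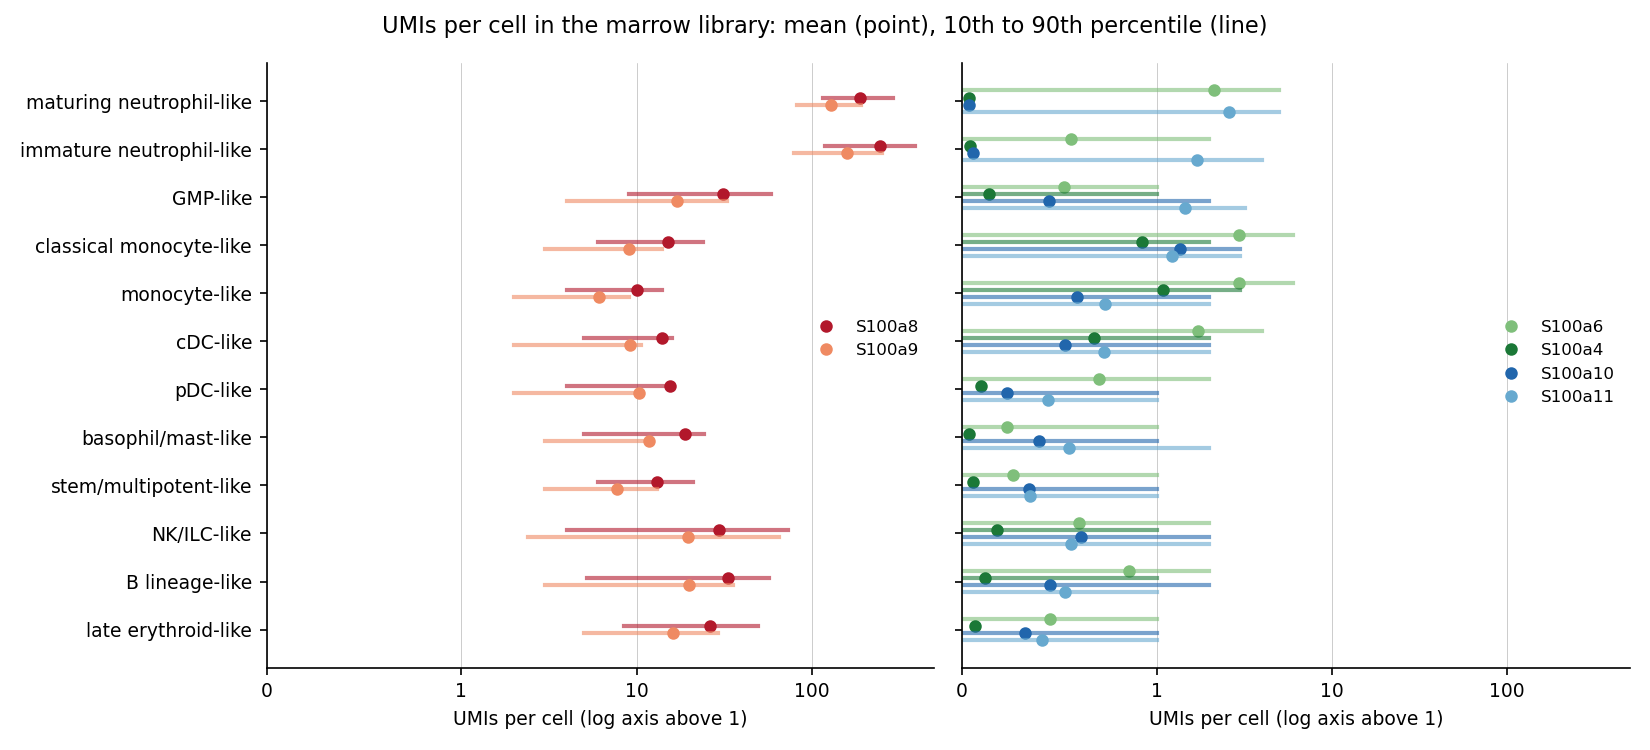
UMIs per marrow cell by class, with S100a8 and S100a9 on the left and 4 other members on the right (axis linear below 1 and logarithmic above); points are means and lines run from the 10th to the 90th percentile. Outside the neutrophil-like classes the S100a8 lines start at 4 or more UMIs in all classes, while those of the other members start at 0.

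The spread of S100a8 over non-myeloid cells was uneven. The variance was 90.3 times the mean, against 2.05 for S100a6, 1.54 for S100a11, 1.53 for S100a10 and 1.23 for S100a4, where 1 is the value of Poisson counts. For S100a8 it was 14.5 in late erythroid-like, 140 in NK and innate lymphoid-like and 192 in B lineage-like cells. Where depth varies this ratio grows with the mean, so genes of unlike level are not directly comparable by it. With cells thinned to equal depth, S100a8 stood at 51.1 over non-myeloid cells. By class the thinned S100a8 ratio was 1.77 in late erythroid-like, 69.2 in NK and innate lymphoid-like and 72.8 in B lineage-like cells. The uneven spread at equal depth thus lay mainly in the lymphoid-like classes. The 10% of B lineage-like cells with most S100a8 held 64.8% of that class's S100a8 UMIs, and the top 10% of NK and innate lymphoid-like cells 66.99%. A small number of cells therefore set the CPM of these classes, while their medians stayed at 11 and 9.

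The 58 non-myeloid cells with at least 50 S100a8 UMIs, chosen by that value, held 49.3% of the UMIs. They had a median depth of 3174.5 against 1357 UMIs in the other 476 cells. Of the 58, 28 were late erythroid-like, 20 NK and innate lymphoid-like and 10 B lineage-like, against 248, 145 and 83 of the others. All 10 immature neutrophil markers were at least 2-fold higher in the 58 cells, with a summed level of 18078 against 4643 CPM, and none of the 10 was at 0 in either set. Of the 10 maturing neutrophil markers 5 were so, at a summed 1997 against 821 CPM, with Il1b and Stfa2l1 at 0 in the 58 cells. S100a11 was also higher there, at 392 against 184 CPM, while S100a4 was at 21.5 against 60.7 and S100a10 at 77.5 against 241. These levels were not split by class, and late erythroid-like cells as a class were themselves at 21.6 CPM of S100a4 and 107 of S100a10. Whether these barcodes hold material of more than 1 cell was not tested beyond the doublet caller. Without them the non-myeloid level of S100a8 was 8668 CPM, in place of 13555.

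Some neutrophil transcripts stood at a similar ratio to S100a8 in the 12 marrow classes, while others did not. For each 100 S100a8 UMIs there were 64.7 S100a9 UMIs in immature neutrophil-like cells, 68.1 in maturing neutrophil-like cells and 62.7 (61.1 to 64.3) in non-myeloid cells. Over the 12 classes the ratio ran from 55.0 in granulocyte-monocyte progenitor-like cells to 68.1, and 26 macrophage-like cells, too few for a class here, had 74.2 (69.5 to 79.2). Camp, the cathelicidin of secondary granules, stood at 26.1 per 100 in immature neutrophil-like and 24.3 in non-myeloid cells, and Ngp, another secondary granule protein, at 16.6 and 15.6. Their lowest ratios were those of granulocyte-monocyte progenitor-like cells, at 19.5 for Camp and 9.77 for Ngp. The Camp ratio was about as low in maturing neutrophil-like cells, where Camp stood at 40611 CPM beside 207053 CPM of S100a8. Lyz2, a lysozyme of monocytes and neutrophils, ran from 4.0 per 100 in immature neutrophil-like cells to 173 in the monocyte-like class. The primary granule gene Elane ran from 0.051 per 100 in maturing neutrophil-like to 37.8 in granulocyte-monocyte progenitor-like cells.

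The remaining S100 genes had no fixed ratio to S100a8. S100a6 stood at 0.23 per 100 S100a8 UMIs in immature neutrophil-like cells, 2.0 in non-myeloid cells and 29.1 in the monocyte-like class. For S100a4 the values were 0.016, 0.39 and 10.8. The part of free RNA from neutrophils in the S100a8 and S100a9 counts was not tested, since barcodes below the lowest depth of 593 UMIs were not analysed here.

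**Figure D3:**
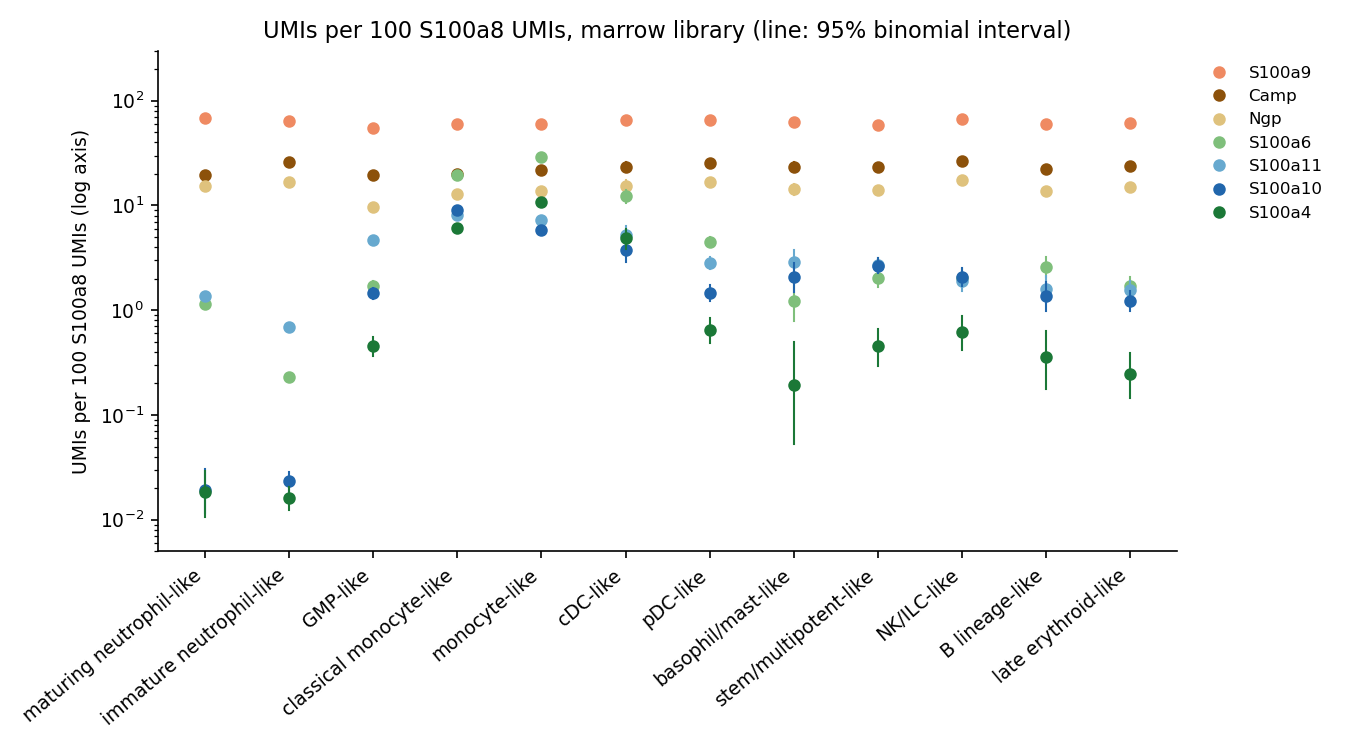
UMIs of 7 genes per 100 S100a8 UMIs (log axis) in each marrow class; lines are 95% binomial intervals. S100a9 stays between 55.0 and 68.1 over the 12 classes. Ngp dips in granulocyte-monocyte progenitor-like cells, and Camp is low both there and in maturing neutrophil-like cells. S100a6, S100a11, S100a10 and S100a4 move over more than 1 order of magnitude.

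Between the libraries, 6 of the 7 members were at least 2-fold lower in Car1-GFP cells and 0 were at least 2-fold higher. Of the 12076 genes with at least 20 UMIs, 32.7% were lower and 22.2% higher by that measure. S100a8 stood at 69.4 CPM against 67648, a log2 ratio of -9.93 (-9.98 to -9.88), and S100a9 at 48.7 against 43780, a log2 ratio of -9.81. S100a6 stood at 2.38 against 1031 CPM (-8.76) and S100a4 at 0.631 against 263 CPM (-8.70), the latter from 27 UMIs. S100a11 stood at 64.7 against 893 CPM (-3.79) and S100a13 at 37.4 against 225 CPM (-2.59).

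S100a10 was the exception, with 331 CPM in Car1-GFP cells, 320 in marrow cells and a log2 ratio between them of 0.05 (-0.01 to 0.11). The median of the members was -8.70 against -0.23 over all genes. S100a1, the only other family member with enough counts, stood at 48.5 against 77.1 CPM (-0.67). In such sums fewer cells of a type and less RNA per cell cannot be told apart, and the libraries also differed in gate and depth.

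Restricting both libraries to erythroid-named cells, 2255 in the Car1-GFP and 276 in the marrow library, gave smaller differences of the same direction for 6 members. S100a8 was at 70.7 against 8733 CPM, a log2 ratio of -6.95, S100a9 at -6.74, S100a6 at -5.95 and S100a4 at -5.03 (-5.94 to -4.08). These sums include 4 Car1-GFP cells rich in S100a8, described below, which fell in an erythroid progenitor-like cluster. They held 1627 of the 2877 S100a8, 1165 of the 2027 S100a9 and 30 of the 99 S100a6 UMIs. Without them, S100a8 in Car1-GFP erythroid progenitor-like cells stood at 31.0 CPM in place of 74.0, and S100a9 at 20.9 in place of 51.7. S100a11 stood at -1.14 (-1.41 to -0.86) and S100a13 at -0.78 (-1.18 to -0.35). S100a10 was higher in the Car1-GFP cells, at 319 against 107 CPM, a log2 ratio of 1.57 (1.27 to 1.89). Thus 5 members were at least 2-fold lower and 1 at least 2-fold higher, where 27.4% and 12.5% of 11018 genes were.

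The erythroid-named cells of the 2 libraries differ in class name, those of the marrow library all being named late erythroid-like at the clustering used. That marrow class was mixed in stage. Hbb-bs stood close in the 2 sets, at 5591 CPM in Car1-GFP and 5687 in marrow cells, while Hba-a1 stood at 3037 against 6839. At a finer clustering (Leiden resolution 2), which separated 198 erythroid progenitor-like marrow cells, the ratios for erythroid progenitor-like cells alone were -6.89 for S100a8, -5.82 for S100a6 and 1.45 (1.14 to 1.77) for S100a10. The S100a8 and S100a6 ratios again include Car1-GFP cells rich in S100a8. S100a10 then stood at 122 CPM in the progenitor-like and 23.4 CPM in the late erythroid-like marrow cells. Scaling by TMM moved the median of all genes, and each member with it, by 0.39 on the log2 scale. With TMM the share of lower among all 2-fold calls fell from 59.5% to 46.2%, and S100a10 stood at 0.43 over all cells. The same factors, estimated from the sums over all cells, put S100a11 in erythroid-named cells at -0.75, which leaves 4 members at least 2-fold lower there. No factors were estimated from erythroid-named cells alone.

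**Figure D4:**
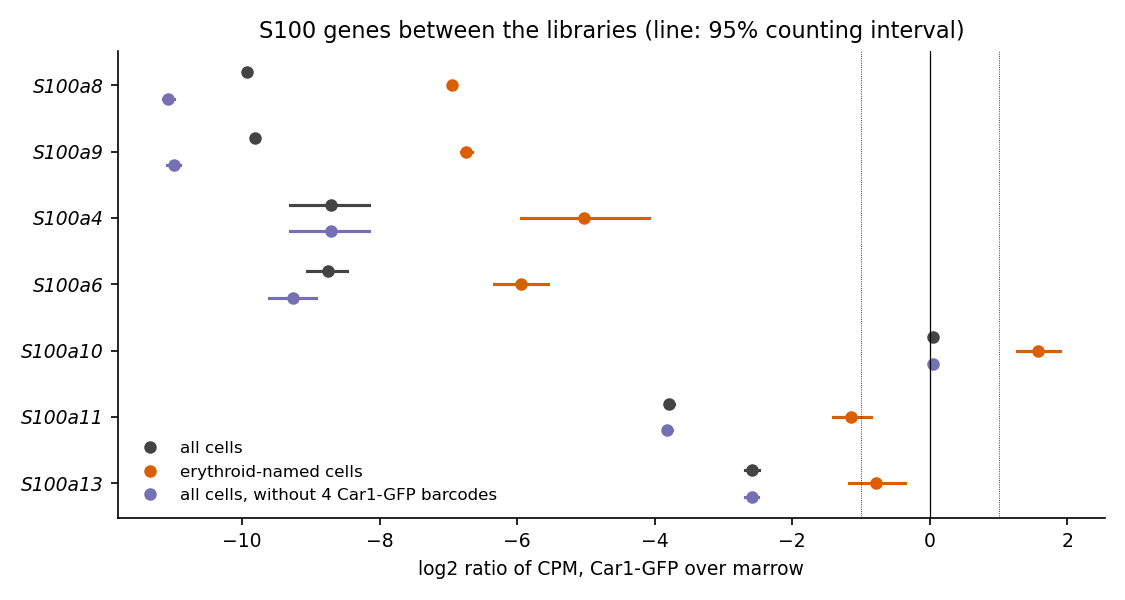
Log2 ratio of CPM, Car1-GFP over marrow, for each member over all cells (grey), over erythroid-named cells (orange) and over all cells without 4 Car1-GFP barcodes rich in S100a8 (purple); lines are 95% counting intervals and dotted lines mark 2-fold. S100a8 to S100a6 lie far to the left, and S100a10 lies at 0.05 over all cells and at 1.57 over erythroid-named cells.

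Calprotectin in the Car1-GFP library had 2 separate parts. In 4 of the 2400 cells, set apart by that count and all in cluster 7, there were 1003, 346, 243 and 35 S100a8 UMIs, together 54.8% of the library's total. In the other 2396 cells there were at most 5 each, at 31.4 CPM (29.7 to 33.1), and 40.5% of them had at least 1 UMI at a median depth of 15512.5. Thinned to 1000 UMIs, 3.13% (2.47 to 3.91) of those cells had an S100a8 UMI.

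The cells outside those 4 had a variance 1.17 times the mean for S100a8 and 1.11 for S100a9, near the value of 1 for Poisson counts. Clusters of at least 50 cells other than cluster 7 ranged from 26.7 CPM in cluster 1 to 43.3 in cluster 8, intervals that did not overlap, and cluster 7 without the 4 cells stood at 27.0 CPM (20.9 to 34.3) in place of 666. Without the 4 cells the log2 ratio to the marrow library was -11.07 for S100a8, -10.99 for S100a9 and -9.26 for S100a6, while S100a10 remained at 0.05.

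Those 4 cells carried granule transcripts in unlike mixtures. The first, with 6925 UMIs in all, held 775 S100a9, 410 Ngp and 279 Camp UMIs and 0 Elane UMIs. The second held 276 S100a9, 377 Camp and 210 Elane UMIs, the third 114 S100a9 and 19 Lyz2 UMIs but 0 Elane, 0 Camp and 1 Ngp UMI, beside 326 Hbb-bs UMIs, and the last 0 S100a9 but 232 Elane and 139 Mpo UMIs. Summed over the 4, all 10 immature neutrophil markers and all 8 granulocyte-monocyte progenitor markers were at least 2-fold above the other cells. Their summed erythroid progenitor markers stood at 1514 against 2603 CPM, with none of the 11 at 0 in the sum over the 4. The late erythroid markers went the other way, at a summed 20470 against 12302 CPM, with 2 of the 9 at least 2-fold higher and Bpgm at 0. In the order given, the cells held 2, 2, 10 and 2 UMIs of the erythroid factor Klf1. They held 0, 1, 2 and 1 UMIs of Gata1, and the first had 15 Hbb-bs UMIs.

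The low S100a8 signal of the other 2396 cells came with a different set of granule genes than in the marrow library. For each 100 S100a8 UMIs it had 68.5 (62.9 to 74.5) S100a9, 30.1 Camp and 23.2 Ngp UMIs. Elane and Mpo, the primary granule genes of granulocyte-monocyte progenitors, stood at 25.4 (22.5 to 28.7) and 31.8 (28.5 to 35.5) per 100, against 1.13 and 1.14 in marrow non-myeloid cells. Granulocyte-monocyte progenitor-like marrow cells had 37.8 and 29.6. Thus the S100a9 ratio was near that of the marrow library, and the Mpo ratio near that of progenitor-like cells, while the Elane ratio lay below theirs and above that of marrow non-myeloid cells. Its source was not tested.

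S100a4 and S100a6 were the lowest members in the Car1-GFP library. S100a4 gave 27 UMIs in 2400 cells, of which 1 cell held 9, and S100a6 gave 102. Cluster 7 outside the 4 cells, 158 cells, held 14 of the S100a4 and 45 of the S100a6 UMIs, at 5.64 and 18.1 CPM. Lyz2 had 517 UMIs in the same cells against 67 for S100a8. Late erythroid-like cells had no S100a6 UMI, where the floor of 3 counts is 1.03 CPM and the exact interval reaches 1.27 CPM, and stood at 3.04 CPM when the mitochondrial filter was left off.

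S100a10, S100a11 and S100a13 were the members with a graded pattern within the Car1-GFP cells. S100a10 was seen in 96.5% of the cells, or 32.1% when thinned to 1000 UMIs, and stood at 814 CPM in cluster 0, the largest, and 137 CPM in cluster 9, 5.96-fold apart. S100a11 ran from 148 CPM in cluster 0 to 22.5 in cluster 6, 6.60-fold, and S100a13 from 60.0 to 24.99 CPM in the same clusters, 2.40-fold. At least 2-fold between clusters was found in 35.4% of the 4554 genes with at least 20 CPM. By class, S100a10 stood at 332 CPM in erythroid progenitor-like and 143 in late erythroid-like cells, an order that turned with single-cell marker gates, to 315 and 637 CPM. S100a11 turned likewise, from 65.0 and 23.1 to 60.6 and 122 CPM, and S100a13 from 37.2 and 25.2 to 36.0 and 64.3 CPM. Of the 131 late erythroid cells of those gates, 69 lay in cluster 0 and 29 in the late erythroid-like class, and their median depth was 6141 UMIs.

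Over the 10 clusters of at least 50 cells, the 3 genes followed Gata2, a factor of early progenitors and mast cells, with Pearson correlations on log2(CPM + 1) of 0.99 for S100a10, 0.97 for S100a11 and 0.97 for S100a13. Against Klf1, a factor of erythroid maturation, they were -0.90, -0.92 and -0.88. Cluster 0 had 204 CPM of Gata2 and 287 of Klf1, and cluster 6, with 24393 CPM of the globin Hbb-bs, had 14.5 and 502. Between S100a8 and Gata2 the Pearson correlation was 0.36 and Spearman's rho 0.59, and without the 4 cells rich in S100a8 they were 0.42 and 0.30. These values are descriptions over 10 clusters of 1 library, whose clustering left the S100 genes out.

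Depth moved with the same axis, since S100a10 stood at 720 CPM in erythroid-named cells with under 8000 UMIs and at 226 CPM in those with 24000 or more. With every cell thinned to 1000 UMIs, S100a10 was seen in 53.5% of cluster 0 and 10.8% of cluster 3. The unnamed cells of cluster 8, with 513 CPM of the megakaryocyte gene Pf4, stood at 562 CPM of S100a10 and 115 of S100a11.

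**Figure D5:**
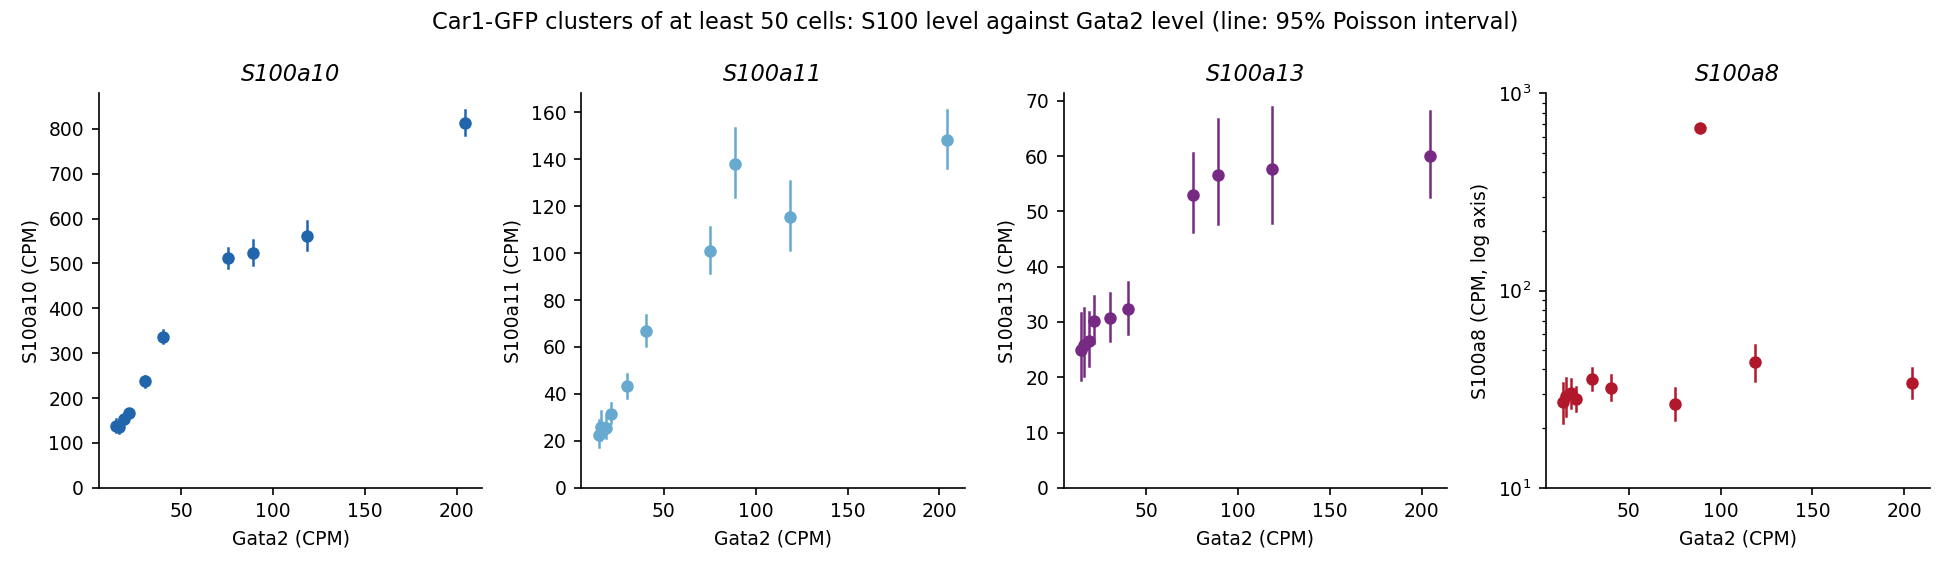
Level of S100a10, S100a11, S100a13 and S100a8 (CPM, log axis for S100a8) against Gata2 (CPM) in the 10 Car1-GFP clusters of at least 50 cells; lines are 95% Poisson intervals. The first 3 climb with Gata2, S100a10 from 137 to 814 CPM, whereas S100a8 lies between 26.7 and 43.3 CPM apart from cluster 7 at 666 CPM.

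Genes that work with the S100 proteins were compared between the libraries over the same lists for all cells. Among S100 partners and targets, 7 of 12 measured genes were at least 2-fold lower in Car1-GFP cells and 2 higher, where 32.7% and 22.2% of all genes were, with a median log2 ratio of -2.85 against -0.23 over all genes. The partner of S100a10, Anxa2, stood at 12.2 against 240 CPM (-4.30), although S100a10 itself stood at 331 against 320. Ahnak, a large scaffold bound by the S100a10 complex, was at -8.83, Anxa1, the partner of S100a11, at -6.67 and Myh9, the myosin target of S100a4, at -4.63. Cacybp, the S100a6-binding protein, was higher, at 349 against 99.0 CPM (1.82), and so was Sgta (1.57).

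Of 9 measured S100 receptors, 6 were lower and 1 higher, beside the same 32.7% and 22.2% of all genes. Cd33 stood at -9.63, Alcam at -7.96, Tlr4 at -6.09 and its co-receptor Ly96 at -4.08, while Bsg, a receptor of S100a9 that is abundant on red cells, stood at 451 against 168 CPM (1.42). All 7 measured factors of the calprotectin transcription list were lower, among them Cebpb (-9.80) and Gfi1 (-9.24, -14.55 to -6.73, from 1 UMI in the Car1-GFP library), Cebpe (-8.85) and Irf8 (-7.10), and 1 listed gene was not analysed here. The 10 neutrophil granule genes were all lower with a median of -9.13, led by Wfdc21 (-10.96), Ltf (-9.79), Chil3 (-9.51) and Camp (-9.38). The 4 globin genes were all higher, from 1.59 for Hba-a2 to 3.10 for Hbb-bs. In erythroid-named cells alone, where 27.4% of all genes were lower and 12.5% higher, 5 of 12 partners were lower and 1 higher, and 2 of 6 receptors were lower and 0 higher, the receptors near the share of all genes. Of 5 measured transcription factors 3 were lower there, and all 10 granule genes. The globin genes went the other way than over all cells, with 2 of 4 lower and 0 higher, Hba-a2 at -1.58, Hba-a1 at -1.17, Hbb-bt at -0.20 and Hbb-bs at -0.02.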

How the data were processed

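The 2 libraries were made with 10x Genomics v2 chemistry. Per the submitters' processing notes the authors used Cell Ranger 2.1, Seurat 2 and mm10, in no stated roles. The deposited matrices hold raw UMI counts per gene and barcode, not normalized, whole numbers throughout; other upstream filters are not given in the sources used here.

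Cells were kept from 500 UMIs upward and below a mitochondrial share of 10%. Scrublet doublets were removed where at least 0.5% of cells were marked (171 in the marrow library, 0 removed of 9 marked in the Car1-GFP library). Each library was clustered in scanpy 1.11.5 (Python 3.11.15, leidenalg 0.10.2) with 2000 variable genes, 30 components, 15 neighbours, Leiden resolution 1 and seed 1, without 17 S100 genes. A cluster took the class whose markers had the highest mean log2 ratio (10 CPM added), with at least 3 markers at 2-fold and no other class with more markers in its top 10 genes. Where only a sister class blocked the name, the family name was used. This naming rule was set after the data were seen.

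Counts were summed per class as CPM, with exact Poisson intervals. Shares have exact binomial (Clopper-Pearson) intervals, and ratios of sums exact binomial intervals for a pair of counts. UMIs at 3' ends do not scale with transcript length, so levels of different genes are comparable as molecules captured, within capture efficiency. Cells were thinned to 1000 UMIs for shares. The floor of 3 counts was 0.361 CPM in the marrow and 0.0701 CPM in the Car1-GFP library. The interval functions were tested on simulated data. Library scaling was also tried with edgeR 4.0.16 and DESeq2 1.42.0 (R 4.3.3), and no count test was run because each group has 1 library.

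The members and lists were chosen with earlier results of these data known. Named were the 7 members, other S100 genes with at least 20 UMIs, for each member the 3 genes of highest correlation over marrow classes, and up to 4 genes of each list with the largest ratios. Genes used to describe clusters or cells (such as Gata2, Klf1, Pf4, Lyz2, Elane and Mpo), and the list members Cacybp, Sgta and Bsg, were added after values were seen. Positions are 1-based from GENCODE M21.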

Additional observations from a re-analysis of the deposited data

How the results depend on the processing

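Across the alternatives, 6 of 7 members kept at least 10-fold between marrow classes, and 7 of 7 did so with single-cell marker gates. The count of members at least 2-fold lower in the Car1-GFP library was 6 in every setting run. These included TMM and DESeq2 size factors, and no S100a8 and S100a9 UMIs in the total. Dropping the filter on low counts cannot change a member's ratio, so that setting only repeats the reported values and shows nothing about robustness. At least 99.4% of thinned non-myeloid cells had an S100a8 UMI in every setting, and S100a9 stood at 61.3 to 63.9 per 100 S100a8 UMIs in non-myeloid cells. The median of S100a8 UMIs per non-myeloid cell, 14, was 23.0 in cells with at least 1000 UMIs, 12.0 with single-cell marker gates and 9.0 when plasmacytoid dendritic-like cells were counted as non-myeloid. Of 1001 levels by class and setting, 61 differed by over 1.5 times from the value reported. Of 161 log2 ratios, which include the repeated values, 11 did so and 0 changed sign among those of at least 2-fold. The setting without the 4 Car1-GFP cells was chosen after seeing the data. No paired analysis was possible because each group has 1 library. Neither leaving out a replicate nor any test between groups was possible for the same reason. Depth limits S100a4 and S100a6 in the Car1-GFP library, with 27 and 102 UMIs, and class names rest on markers rather than on a deposited annotation.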

Other observations

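At Leiden resolution 2, marrow classes separated that the coarser clustering joined, and their S100 levels are given as values. The 270 nonclassical monocyte-like cells stood at 1263 CPM of S100a4 and 3127 CPM of S100a6, and classical monocyte-like cells at 899 and 2683 CPM. S100a10 ran the other way, at 418 CPM in the nonclassical and 919 in the classical monocyte-like cells. The 197 lymphoid-primed progenitor-like cells stood at 428 CPM of S100a10, 770 of S100a6 and 241 of S100a4, and stem and multipotent progenitor-like cells at 248, 194 and 39.2 CPM. The median of S100a8 UMIs per cell was 10 in lymphoid-primed progenitor-like, 11 in stem and multipotent progenitor-like and 8 in nonclassical monocyte-like cells.

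Among the 559 plasmacytoid dendritic-like cells at the clustering used in the report, 23 had at least 50 S100a8 UMIs and held 48.7% of that class's S100a8 UMIs. S100a8 stood at 9451 CPM in the other 536 cells.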
